A study of Sus scrofa with 8 samples.

Results

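FHL3, FHL1, ANKRD1, ANKRD2 and CSRP3 encode LIM domain and ankyrin repeat proteins of striated muscle that are linked to mechanical load, and 3 of these 5 genes, FHL3, FHL1 and ANKRD1, were measured here. Members were taken by gene symbol from the annotation of an Affymetrix porcine array. FHL3 and FHL1 had 1 probe set each and ANKRD1 had 2, which makes 4 probe sets of the 10069 that carry a single symbol. ANKRD2 and CSRP3 matched 0 probe sets and were not analysed here. These 3 genes stand among 6765 named genes of the array. The members were chosen by name with the corticosteroid and control values of these arrays known, with FHL3 and ANKRD1 singled out for contrast, and the lead probe set of a gene was selected on its mean log2 level over the 8 arrays. Differences between the groups are therefore a description of these members and support nothing about them as a group.

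The RNA was extracted from the biceps femoris, in the hind limb, of female domestic piglets after 5 days of sedation and mechanical ventilation, a porcine model of acute quadriplegic myopathy, the limb weakness of intensive care patients. There were 4 control and 4 corticosteroid arrays, and the comparison asks how a corticosteroid alters muscle under these conditions. All piglets received isoflurane with morphine and ketamine as needed, crystalloid fluid, glucose, streptomycin and bensylpenicillin, and were tracheotomised and warmed. The corticosteroid group was given bolus doses of hydrocortisone, a glucocorticoid. The protocol of the control samples adds Escherichia coli endotoxin at 36 µg/kg/h for 1 h, which their source label leaves out, and the protocol of the corticosteroid samples does not name it. The mean body weight was 25.5 kg in the text for controls, which speaks of 4 piglets, and 26.4 kg in the text for the corticosteroid group, which speaks of 8. The series also describes a pancuronium infusion, a neuromuscular blocker, without saying who received it, and no age is given. Corticosteroid, endotoxin and any processing batch cannot be told apart in these groups, and because the labels do not tie each array to its own animal, p-values measure only the spread between these samples.

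LIM domains are zinc-binding modules through which proteins dock onto partners. The four-and-a-half-LIM proteins FHL1 and FHL3 contact actin filaments, integrins and transcription factors. FHL1 takes part in sarcomere assembly and, in the heart, in a stretch-sensing complex on titin, and mutations in it cause inherited myopathies. FHL3 is a skeletal muscle member of the family that binds actin and has been reported to bind MyoD. ANKRD1, also called CARP, is an ankyrin repeat protein that binds titin and myopalladin in the I-band and also enters the nucleus, and its transcript is known to be induced by stretch, injury and denervation. No sequence of these genes was used here.

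The deposited table appeared to list the 2 groups in different row orders, so the corticosteroid values were re-assigned to the probe IDs sorted as text with full stops ignored. This moved 39.1% of the rows. The rows of FHL3 and of the lead ANKRD1 probe set were among those moved, and the rows of FHL1 and of the second ANKRD1 probe set were not. As deposited, the corticosteroid values in the FHL3 row ran from 3.21 to 3.47 and those in the lead ANKRD1 row from 3.77 to 4.68. Array medians ran from 5.87 to 5.97, and all levels below are log2 expression levels. The tissue label was matched by 5 of 5 measured skeletal muscle markers (CKM, DES, MYBPC1, TTN and NEB) with mean levels above the filter on low values, which lay at 5.27. Of 5 measured cardiac markers, NPPA, NPPB and GATA4 lay below it. TNNT2 (mean 5.58) and TNNI3 (mean 5.52) lay above it. TNNT2 reached 7.58 in control replicate 1 and 7.09 in corticosteroid replicate 3.

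FHL3 was higher in corticosteroid-treated muscle on every array. Its levels were 10.69, 9.84, 10.94 and 10.63 in control replicates 1, 2, 3 and 4. In corticosteroid replicates 1, 2, 3 and 4 they were 11.68, 11.70, 12.35 and 11.80. The lowest treated array lay above the highest control array, so the groups did not overlap. This was so for 3.05% of all 14361 probe sets tested, counting higher levels with corticosteroid only, and for 5.56% in either direction. The treated mean was 11.88 ± 0.31 (SD, n = 4) and the control mean 10.52 ± 0.47 (SD, n = 4). The difference of 1.36 (SE 0.25) on the log2 scale corresponds to 2.56 times the control signal. Control replicate 2 had the lowest FHL3 level of the 8 arrays, and without it the difference was 1.13. In whole muscle, a change in the cells present and a change in RNA per cell cannot be told apart.

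FHL1 differed little between the groups. Its levels were 13.31, 13.23, 13.78 and 13.52 in control replicates 1 to 4. They were 13.64, 13.08, 13.28 and 13.12 in corticosteroid replicates 1 to 4. The groups overlapped in part, with control replicate 3 and corticosteroid replicate 1 the 2 highest arrays. Corticosteroid replicates 2 and 4 lay below every control array. The treated mean was 13.28 ± 0.26 (SD, n = 4) against a control mean of 13.46 ± 0.25 (SD, n = 4), and the difference of -0.18 (SE 0.16) had a 95% interval from -0.54 to 0.18. FHL1 and FHL3 belong to one protein family, and whether their differences of -0.18 and 1.36 were themselves unequal was not tested. When each array was left out in turn, the lowest FHL1 difference was -0.30 (without corticosteroid replicate 1) and the highest -0.07 (control replicate 3 left out).

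ANKRD1 was lower with corticosteroid on 3 of 4 arrays. Its lead probe set had levels of 11.09, 12.20, 12.54 and 11.26 in control replicates 1 to 4. It stood at 12.01 in corticosteroid replicate 1, and at 10.12, 9.41 and 9.39 in corticosteroid replicates 2, 3 and 4. Corticosteroid replicate 1 lay inside the control range, and the other 3 treated arrays lay below every control array. The groups thus overlapped through 1 array. Treated arrays averaged 10.23 ± 1.23 (SD, n = 4) and control arrays 11.77 ± 0.71 (SD, n = 4). The difference was -1.54 (SE 0.58), and it was -2.13 without corticosteroid replicate 1. Treated arrays spanned 2.62 log2 units for ANKRD1 and 0.67 for FHL3.

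The second ANKRD1 probe set gave a small difference with a wide error. Its levels were 4.54, 7.02, 6.16 and 6.41 in control replicates 1 to 4, and 7.51, 5.91, 5.21 and 4.44 in corticosteroid replicates 1 to 4. Corticosteroid replicate 1 was the highest and corticosteroid replicate 4 the lowest of the 8 arrays. Within the treated group both ANKRD1 probe sets ranked the arrays in the same order, 1, 2, 3 and 4 from high to low, and the row of this second probe set was not moved. Among controls both put replicate 1 lowest, but the lead probe set had replicate 3 highest and the second had replicate 2 highest. The second probe set was dim, and control replicate 1 and corticosteroid replicates 3 and 4 fell below the filter level of 5.27. Treated arrays averaged 5.77 ± 1.31 (SD, n = 4) for it and control arrays 6.03 ± 1.06 (SD, n = 4). The difference of -0.26 (SE 0.68) had a 95% interval from -1.78 to 1.26. It changed sign when control replicate 2 (0.06) or corticosteroid replicate 4 (0.18) was left out.

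**Figure D1:**
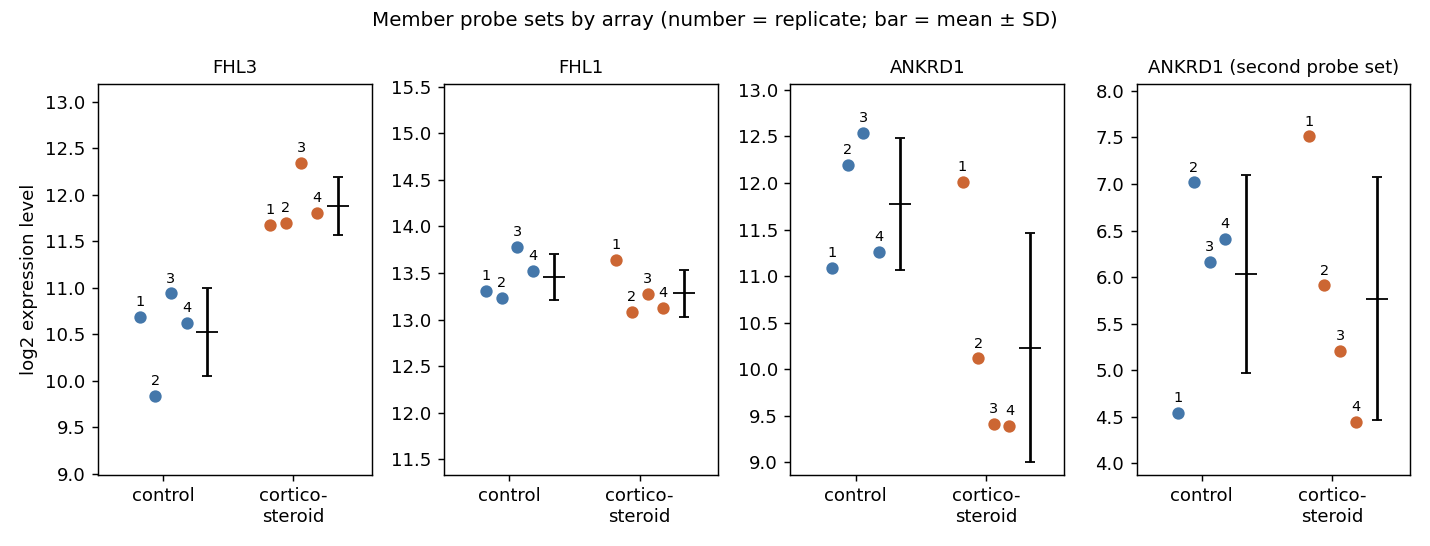
Log2 expression level (vertical axis, the same span in each panel) of the 4 member probe sets on the 4 control and 4 corticosteroid arrays; points are arrays with their replicate number, and bars are the mean ± SD (n = 4). The FHL3 groups do not overlap, with controls up to 10.94 and treated arrays from 11.68, while corticosteroid replicate 1 (12.01) lies among the controls for ANKRD1.

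None of the 4 member probe sets passed the test across the whole table. All 4 were above the filter on low values. Adjusted p-values in limma were 0.469 for FHL3, 0.482 for the lead ANKRD1 probe set, 0.695 for FHL1 and 0.907 for the second ANKRD1 probe set. The share of all probe sets called at an adjusted p under 0.05 was 0% (0 of 14361, smallest adjusted p = 0.469 in limma). An unadjusted p under 0.05 was reached by 1363 probe sets (9.49%), with 4.78% of all those tested higher and 4.71% lower in treated muscle. FHL3 was among the higher and the lead ANKRD1 probe set among the lower.

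FHL3 and ANKRD1 were then set against each other array by array. Each gene was centred on its own mean over the 8 arrays, because levels of different probe sets are not on a common scale. FHL3 lay below its mean on all 4 control arrays and above it on all 4 treated arrays. ANKRD1 lay above its mean on all 4 control arrays and on corticosteroid replicate 1, and below it on the other 3 treated arrays. The 2 genes thus deviated in opposite directions on 7 of 8 arrays, which largely restates the opposite group differences. Over the 8 arrays Pearson's r was -0.70, and it was -0.32 once each group was centred on its own mean, both given as a description of 8 arrays.

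Corticosteroid replicate 1 was the exception, with both genes above their means, FHL3 by 0.48 and ANKRD1 by 1.01. Corticosteroid replicates 3 and 4 showed the widest separation in the treated group, with FHL3 at 1.14 and 0.60 and ANKRD1 at -1.59 and -1.61. Control replicate 2 showed the widest separation among controls, with FHL3 at -1.36 and ANKRD1 at 1.19. In control replicate 3 the ANKRD1 deviation of 1.54 was the highest of the 8 arrays, while FHL3 stood at -0.26.

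The centred difference, FHL3 minus ANKRD1, was -0.60, -2.56, -1.80 and -0.83 in control replicates 1 to 4. It was -0.53, 1.38, 2.73 and 2.21 in corticosteroid replicates 1 to 4. All treated arrays lay above all control arrays on this measure, but corticosteroid replicate 1 exceeded control replicate 1 by a small margin only. The treated mean of 1.45 ± 1.43 (SD, n = 4) and the control mean of -1.45 ± 0.90 (SD, n = 4) were 2.90 apart. No test is given, since this contrast defined how the genes were chosen. Against the second ANKRD1 probe set the centred difference ranged from -1.13 to 2.06 on treated arrays and from -2.48 to 0.85 on control arrays, so the groups overlapped.

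**Figure D2:**
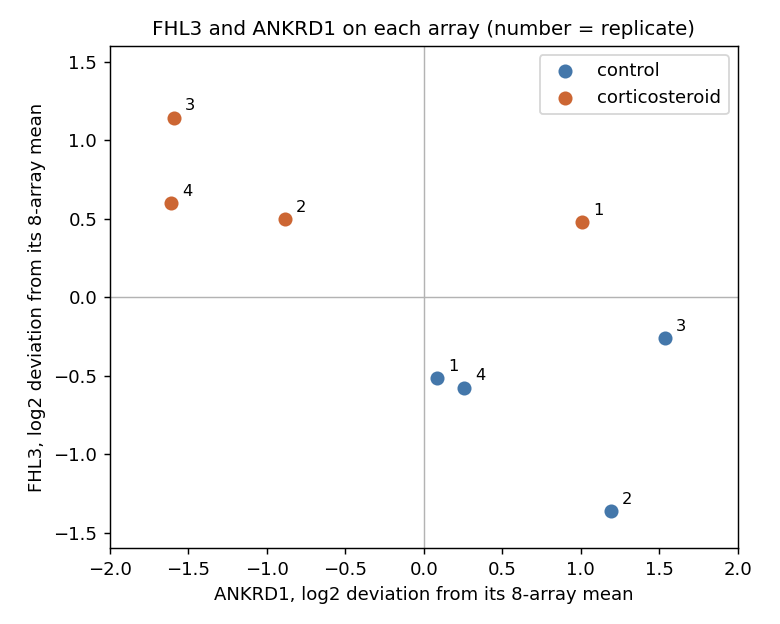
Deviation of FHL3 (vertical) against that of the lead ANKRD1 probe set (horizontal) from each gene's mean over the 8 arrays, in log2 units; points are arrays, numbered by replicate. Controls lie at the lower right and corticosteroid replicates 2, 3 and 4 at the upper left, with corticosteroid replicate 1 at the upper right (ANKRD1 1.01, FHL3 0.48).

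Fibre type genes and markers of other cell types are given beside the members, and how far they vary together with them was not tested. CSRP3, ANKRD2 and FHL1 are known to be expressed unequally between fibre types. The means of all 9 measured slow-fibre genes were lower in treated muscle (median difference -0.98) and those of all 7 measured fast-fibre genes were higher (median 0.43), against a median of 0.03 over the 5406 genes tested. The slow-fibre gene CASQ2, with a mean of 5.38 over all arrays, lay close to the filter level of 5.27. Its control mean was 5.85, with 7.67 in control replicate 2, and its treated mean was 4.90. CASQ2 thus passed the filter through control arrays, and its lower mean lends no support, though the slow-fibre counts and means include it. The fast-fibre median was 0.25 without control replicate 2, and 6 of 7 means were then higher. It was also 6 of 7 without control replicate 3, corticosteroid replicate 2 or corticosteroid replicate 3. The fast-fibre gene MYL1 differed by only 0.009 (SE 0.08). None of the 16 was called at an adjusted p under 0.05 in limma, and 6 slow-fibre genes (66.7%) and 2 fast-fibre genes (28.6%) had an unadjusted p under 0.05, as had 9.17% of all genes tested. The same lists were known to differ from earlier results of these data.

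The mean deviation of the slow-fibre genes was 0.35, 1.13, 0.95 and -0.33 in control replicates 1 to 4. It was -0.53, -0.69, -0.11 and -0.77 in corticosteroid replicates 1 to 4. Control replicates 2 and 3, the highest arrays for slow-fibre genes, were also the highest for the lead ANKRD1 probe set. Corticosteroid replicate 1 did not share this, with a slow-fibre value of -0.53 and an ANKRD1 deviation of 1.01. Control replicate 2, the lowest array for FHL3, had the lowest fast-fibre value (-0.92).

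Of the macrophage markers 4 of 4 measured genes had lower means with corticosteroid, and their mean level ranged from 7.08 to 8.59 on control arrays and from 6.49 to 7.44 on treated arrays. Control replicate 2 stood high for CD14 (7.40) and CD163 (9.67), and without it 3 of 4 were lower and the differences were 0.09 for CD14 and -0.04 for CD163. MYF5 and CHRNA1, both measured genes of the satellite cell list, had lower means, with 5.88 to 7.95 on control and 6.27 to 6.37 on treated arrays. CHRNA1 encodes an acetylcholine receptor subunit of muscle fibres and is not specific to satellite cells, and MYF5 differed by 0.19 without control replicate 2. The 2 erythroid genes had lower means, with 6.81 to 8.41 and 6.29 to 6.95, and ALAS2 differed by -0.05 without control replicate 3, where it stood at 8.47. Endothelial markers ranged from 7.72 to 8.01 on control and from 7.70 to 7.92 on treated arrays, and fibroblast markers from 8.42 to 9.51 and from 8.41 to 9.07. Smooth muscle markers, of which 4 of 5 were lower (3 of 5 without control replicate 2), ranged from 8.62 to 9.77 and from 8.83 to 9.02. Adipocyte markers ranged from 7.70 to 9.19 on control and from 7.61 to 9.83 on treated arrays. The neutrophil genes S100A8, S100A9 and S100A12 had mean levels below the filter and were not tested, and the means of all 3 were lower with corticosteroid. S100A9 stood above the filter level in control replicates 1, 2 and 3, at 5.64, 5.68 and 6.85. The part of fibre type and of these cell types in the FHL3 and ANKRD1 differences was not tested.

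**Figure D3:**
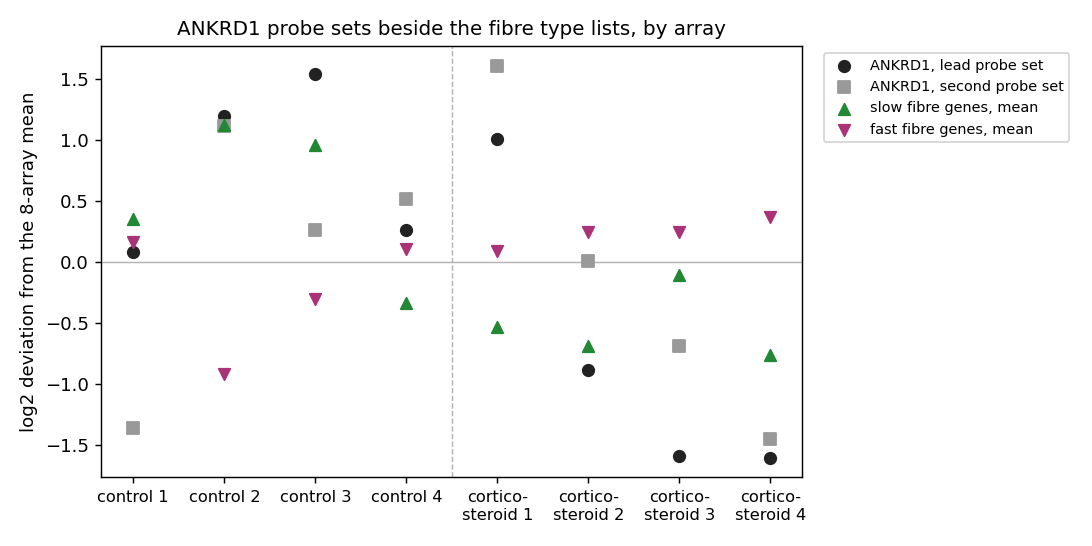
Log2 deviation from the 8-array mean (vertical axis) on each array for both ANKRD1 probe sets and for the mean of 9 slow-fibre and 7 fast-fibre genes. Both ANKRD1 probe sets are above 1 in corticosteroid replicate 1 while the slow-fibre genes stand at -0.53, and control replicate 2 has the lowest fast-fibre value (-0.92).

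Other LIM domain genes and the close relatives of the members did not share one direction. Of 33 listed genes 17 were measured and 13 tested, 6 with higher and 7 with lower means in treated muscle. In limma 0 of 13 were called, and 2 (15.4%) had an unadjusted p under 0.05, as had 9.17% of all genes tested. The median difference was -0.05, and 0.04 without corticosteroid replicate 3.

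FHL2, the family member best known from heart, stood at 5.60, 7.97, 6.82 and 5.97 in control replicates 1 to 4 and between 5.61 and 6.02 on the treated arrays. The difference was -0.73 (SE 0.44, adjusted p = 0.591), and control replicates 2 and 3 lay above all other arrays. CSRP1 and CSRP2, paralogues of the unmeasured CSRP3, differed by 0.11 (SE 0.21) and -0.41 (SE 0.48). CSRP2 was also highest in control replicates 2 (7.83) and 3 (7.28).

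LMCD1, a LIM and cysteine-rich domain cofactor, differed by -1.17 (SE 0.48, adjusted p = 0.500). Its highest level, 9.13, was in control replicate 3. NRAP, a LIM and nebulin repeat protein of developing myofibrils and myotendinous junctions, differed by 0.60 (SE 0.25, adjusted p = 0.500), from a control mean of 9.08 to 9.68. PDLIM1 differed by -0.42 (SE 0.21) and ABLIM3 by -0.38 (SE 0.27).

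The structural partners of ANKRD1 and of the FHL proteins at the Z-disc and I-band did not share one direction either. Of 31 listed genes 17 were measured and tested, 8 with higher and 9 with lower means. In limma 0 of 17 were called, and 2 (11.8%) had an unadjusted p under 0.05, against 9.17% of all genes tested. The median difference was -0.08, which turned to 0.02 without corticosteroid replicate 3 and to 0.0012 without corticosteroid replicate 1. Titin (TTN), the elastic filament to which ANKRD1 binds, had levels between 13.45 and 13.59 on treated arrays and a difference of -0.09 (SE 0.08, 95% interval from -0.28 to 0.09). The Z-disc crosslinker ACTN2 differed by 0.10 (SE 0.16).

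The titin cap protein TCAP differed by 0.64 (SE 0.30), calsarcin 2 (MYOZ1) by 0.35 (SE 0.19) and the muscle protease calpain 3 (CAPN3) by 0.88 (SE 0.43), all with adjusted p-values in limma of 0.536 or more. CAPN3 was lowest in control replicate 2 (9.96) and highest in corticosteroid replicate 4 (12.54), the arrays that were also lowest for FHL3 and lowest for ANKRD1 respectively.

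The small heat shock protein CRYAB, a chaperone of desmin and titin, had the largest difference of this list by size. It stood at 13.01, 12.49, 13.52 and 12.90 in control replicates 1 to 4 and at 12.33, 12.23, 9.14 and 11.35 in corticosteroid replicates 1 to 4. All treated arrays lay below all controls, as was so for 2.51% of all probe sets tested, and corticosteroid replicates 3 and 4 were lowest, as for ANKRD1. The difference was -1.72 (SE 0.62, adjusted p = 0.479 in limma).

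The Xin repeat proteins XIRP1 and XIRP2 bind actin and are, like ANKRD1, known from loaded and injured muscle. XIRP2 had levels of 10.51, 11.57, 11.47 and 10.49 in control replicates 1 to 4 and from 9.91 to 10.51 on treated arrays. Control replicates 2 and 3 were the highest arrays, as for the lead ANKRD1 probe set. The difference was -0.86 (SE 0.29, adjusted p = 0.479). XIRP1 reached 12.29 in control replicate 3 and lay between 8.39 and 9.31 on the other controls. Its difference was -1.34 (SE 0.75), and corticosteroid replicate 4 stood apart from the other treated arrays at 7.46. The focal adhesion protein talin (TLN1) differed by -0.41 (SE 0.28).

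Genes of actin- and stretch-responsive transcription, which include the SRF, YAP and calcineurin pathways, had lower means more often than higher ones, and this split was not tested. Of 30 listed genes 18 were measured and 16 tested, 4 with higher and 12 with lower means. Over all 5406 genes tested, 2920 had higher and 2486 lower means. In limma 0 of 16 were called, with a median difference of -0.17. Only EGR1 had an unadjusted p under 0.05 (1 of 16, 6.25%), against 9.17% of all genes tested. Leaving out control replicate 2 gave a median of -0.07, and leaving out corticosteroid replicate 4 gave -0.27. The immediate early genes EGR1 and FOS differed by -1.23 (SE 0.53) and -1.42 (SE 0.91). Both were highest in control replicate 2, at 7.58 and 10.73. EGR1 had a mean of 5.31 over all arrays, close to the filter level of 5.27. Its control mean was 5.92, and all its treated arrays (4.33 to 5.05) lay below that level. EGR1 thus passed the filter only through control arrays, and its p-value lends no support to a difference. CCN1, a secreted matrix protein induced by SRF and YAP, differed by -0.63 (SE 0.43) and was also highest in control replicate 2 (8.29). The calcineurin subunit PPP3CB differed by 0.53 (SE 0.25).

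**Figure D4:**
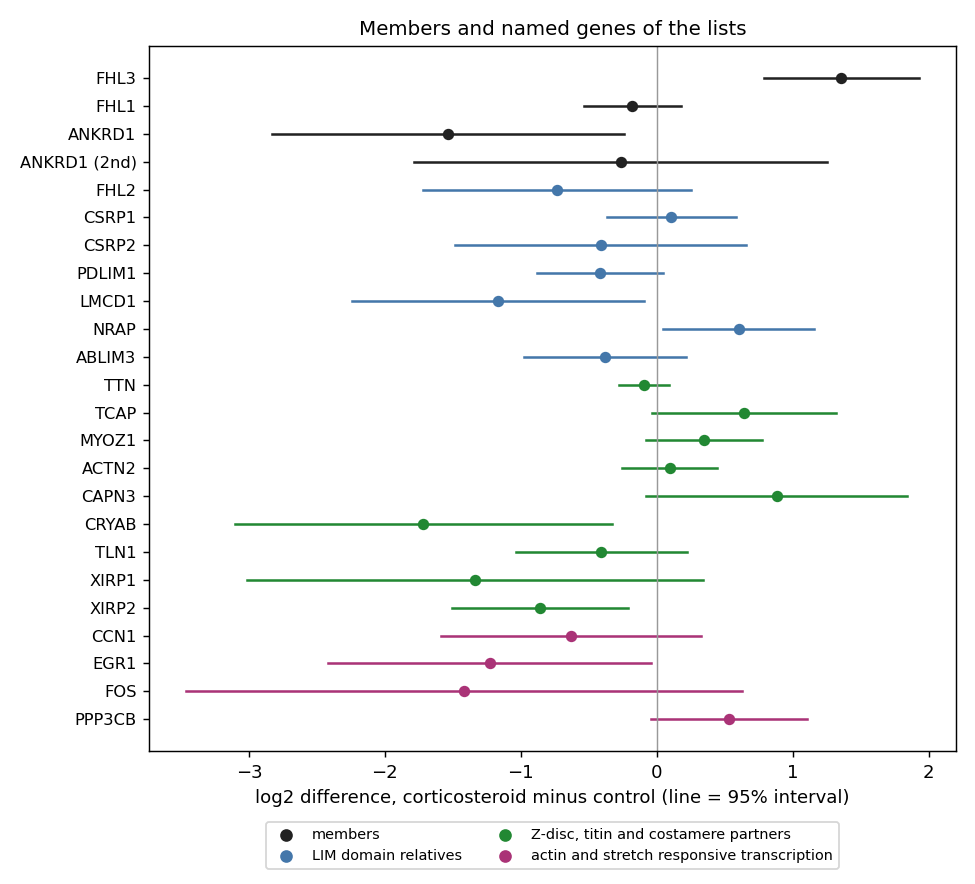
Log2 difference, corticosteroid minus control (horizontal axis), of the 4 member probe sets and 20 named genes of the lists; points are differences of means of 4 arrays each and lines are 95% intervals from limma, not adjusted for the number of probe sets. FHL3 (1.36) has the highest value drawn and CRYAB (-1.72) the lowest, and no gene drawn had an adjusted p under 0.05.

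The genes most alike each member were ranked by Pearson's r over the 8 arrays after each group was centred on its own mean, among 5403 other genes. These are the highest of many values over few arrays and are given without a test. For FHL3 they were XAB2 (r = 0.98), FBXO38 (0.98), TRAPPC12 (0.97), ZNF7 (0.96) and RNF25 (0.96). XAB2, a splicing and DNA repair factor whose row was not moved, had levels of 6.85, 6.06, 6.996 and 6.68 in control replicates 1 to 4. It stood at 7.28, 7.42, 7.78 and 7.36 in corticosteroid replicates 1 to 4 (difference 0.82, adjusted p = 0.469 in limma). Its treated arrays all lay above its controls, as was so for 3.05% of all probe sets tested. RNF25 differed by 0.55, while ZNF7 (0.21), FBXO38 (0.14) and TRAPPC12 (-0.10) were alike within groups without a group difference of the size seen for FHL3. Like FHL3, XAB2 was lowest in control replicate 2 and highest in corticosteroid replicate 3, which largely restates the r by which it was chosen.

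For ANKRD1 the most alike genes were PEA15 (r = 0.96), RANBP1 (0.96), TIMM13 (0.96), PDE8A (0.95) and PUS7 (0.95). The phosphodiesterase PDE8A, in a row that was not moved, had levels of 5.70, 6.18, 6.47 and 6.01 in control replicates 1 to 4. It stood at 6.07, 5.12, 4.90 and 4.42 in corticosteroid replicates 1 to 4. Corticosteroid replicates 2, 3 and 4 lay below the filter level of 5.27. PDE8A thus passed the filter through its control arrays and corticosteroid replicate 1, and its low treated values lend no support to a difference. PEA15, a regulator of ERK signalling, stood at 9.51, 10.36, 10.63 and 9.73 in controls and at 10.01, 9.33, 8.69 and 8.50 in the treated group. In both genes corticosteroid replicate 1 lay within the control range and the other 3 treated arrays below it, the arrangement seen for ANKRD1. The order of the arrays within each group largely restates the r by which these genes were chosen.

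For FHL1 they were CLDND1 (r = 0.97), PRRX1 (0.97), PUS1 (0.97), MED11 (0.96) and DNAJA2 (0.96). The pseudouridine synthase PUS1 had levels of 7.85, 7.89, 8.68 and 8.25 in control replicates 1 to 4 and of 8.57, 7.38, 7.94 and 7.32 in corticosteroid replicates 1 to 4. Control replicate 3 and corticosteroid replicate 1 were the highest arrays of their groups, as for FHL1, which largely restates the r by which PUS1 was chosen.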

How the data were processed

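One array per sample was available for 4 control and 4 corticosteroid samples, grouped by their titles. The authors deposited 1 log2 value for each probe set and array. The submitters' processing notes name MAS5, and the sources used here do not say how the authors scaled the arrays. Corticosteroid columns were re-assigned to the IDs sorted as text without full stops (0 tied IDs), an order found from the values: over the moved rows the group means correlated with r = 0.0997 as deposited and 0.9888 after it, and with 0.9887 over unmoved rows. No further scaling was applied, and 64 reporter probe sets were left out. Genes were named from the platform annotation (10069 probe sets with 1 symbol, 198 with several, 13732 with none), and 9961 were found by gene ID in the RefSeq table of the pig. The 14361 probe sets with a mean above the 40th percentile (5.27) were tested with limma 3.58.1 in R 4.3.3 (lmFit and eBayes, variance trend on intensity), and p-values were adjusted over all of them by Benjamini-Hochberg, with a threshold of 0.05. The number of arrays limits the precision (median SE 0.22). The fit was tested on simulated data.

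The members and lists were chosen with earlier results of these data known. Named were every probe set of the members, the closest paralogues (FHL2, FHL5, CSRP1, CSRP2, ANKRD23), the partners TTN, TCAP, MYPN, MYOZ1, ACTN2 and CAPN3 where measured, up to 4 further genes of smallest p per list and the 5 genes most alike each member. Lists used the probe set of highest mean per gene. Alternatives were a replicate block, quantile normalization, median centring, no filter or the 60th percentile, 16 added before log2, no trend, array weights, rows as deposited, unmoved rows, averaged probe sets and leaving out each array. Replicate numbers did not pair the samples.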

Additional observations from a re-analysis of the deposited data

Results flagged for a closer look

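XIRP1 in corticosteroid replicate 4 stood at 7.46, far from the other 3 treated arrays, which lay between 8.72 and 8.76. Its gap to the nearest of them was 0.97 of the group's range, above Dixon's 95% critical value for 4 samples. Among 48 groups looked at, chance alone gives about 1 in 20 such gaps.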

How the results depend on the processing

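FHL3 stayed higher and the lead ANKRD1 probe set lower in every alternative run but the rows as deposited for FHL3, and no member passed the threshold outside that setting. The unmoved rows gave no value for these 2 probe sets, nor did the filter at the 60th percentile for the second ANKRD1 probe set. With the rows as deposited, FHL3 differed by -7.18 and ANKRD1 by -7.75, their contrast was 0.57, and 5454 probe sets were called (6101 at an unadjusted p under 0.05). Genes called were then 5 of the LIM list, 9 of the Z-disc list (median -1.34), 4 of the transcription list, 6 slow-fibre (median -2.36) and 3 fast-fibre genes. These values follow from pairing different rows. The second ANKRD1 probe set differed by 0.026 with array weights and by 0.50 without control array 2 and corticosteroid array 4, a setting added after seeing the data, and its sign is therefore not settled. The cause was not tested.

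When each array was left out, the difference ran from 1.13 to 1.50 for FHL3, from -0.30 to -0.07 for FHL1, from -2.13 to -1.26 for ANKRD1, from -0.85 to 0.18 for its second probe set and from 2.47 to 3.56 for the contrast of FHL3 and ANKRD1. List medians ran from -0.11 to 0.04 (LIM), -0.09 to 0.02 (Z-disc), -0.27 to -0.07 (transcription), -1.26 to -0.89 (slow fibre) and 0.25 to 0.54 (fast fibre). Probe sets called ran from 0 to 1 (AKR1CL1, without control replicate 3), and those at an unadjusted p under 0.05 between 894 (without corticosteroid replicate 4) and 1777 (control replicate 1 left out), with 903 when control replicate 3 was left out. They numbered 2160 with no filter and 828 in unmoved rows only, which hold fewer probe sets. With the replicate block the adjusted p in limma was 0.532 for FHL3 and 0.534 for ANKRD1, and 1332 probe sets had an unadjusted p under 0.05. Deviations of same-numbered samples correlated between -0.25 and 0.11, and not every sample correlated best with its own number, so the numbers were not taken as pairs, and the block changed no call. The second ANKRD1 probe set lay below the filter level on 3 arrays, and whether its low signal bears on its unsettled sign was not tested.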
